A study of Homo sapiens with 6 samples.

Results

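Interferon-stimulated and antiviral genes were compared between akirin2 KO and WT HL60 cells. The set was a list of 43 symbols, drawn up with earlier results of these data known and applied with no threshold on a measured value, of which 39 had a row among the 17499 genes of the expression table. IFITM1, OAS2, OASL and USP18 were not analysed here. The 39 genes fall into 6 regulators, namely 5 interferon regulatory factors and STAT2, and 33 effectors. HL60 is a human promyelocytic leukemia line that is used as a model of neutrophils. The KO cells had been transfected with a complex of Cas9 and a synthetic guide RNA against akirin2, a nuclear transcription cofactor without DNA-binding activity of its own. The WT cells had received the Cas9 nuclease alone, and both were kept in RPMI medium with 10% fetal bovine serum, with no interferon or other stimulus named. The KO cells were sequenced as an edited pool, with no clones derived and with unedited cells remaining, and each group came from 1 pool. RNA of 3 libraries per group was sequenced. The study's methods call these biological replicates of its cells. Whether they were separate cultures was not given in the sources used here, and the p-values reflect the scatter among these libraries.

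Interferons are secreted proteins that bind receptors at the cell surface and, through the JAK kinases, activate STAT proteins. In the type I pathway STAT2 and IRF9 act in a complex that binds a DNA element called the interferon-stimulated response element (ISRE), and IRF1, IRF3 and IRF7 bind closely related elements. The effectors so induced degrade viral RNA, block its translation, or trap virions and viral proteins, and many are also expressed at a low level in cells that have met no interferon. Receptors of foreign RNA such as RIG-I (gene DDX58) start interferon production and are themselves interferon-stimulated.

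Reads counted to genes, recovered from the deposited values and summed, came to 36096459 to 47607520 per KO library and 41419318 to 52244122 per WT library. The deposited values are normalized counts, that is, gene-level reads scaled by a factor for library size. AKIRIN2 had 1613, 1731 and 1651 normalized counts in KO, against 2378, 2450.4 and 2420.2 in WT, a log2 fold change of −0.54 ± 0.05 (SE, adjusted p = 1.3e-08, limma), and its groups did not overlap. Summed normalized counts of 7 promyelocyte markers were 1087890 to 1125390 in KO and 387325 to 408884 in WT, so that the labelled cell type was marked in every library. The 3 measured markers of plasmacytoid dendritic cells, the main interferon producers of blood, summed to 1058 to 1168 in KO and 878 to 984 in WT. TCF4 made up most of that sum and was higher in KO at 0.63 on the log2 scale, while IL3RA and LILRA4 were lower at −1.10 and −1.33. The 5 measured lymphocyte markers summed to 1501 to 1610.1 in KO and 3232 to 3821 in WT, with NKG7 (−1.27) and CD3E (−2.95) lower and CD79A (0.69) higher. The 4 measured monocyte markers summed to 19181 to 19565 in KO and 6929 to 7306 in WT, most of it LYZ. LYZ and CSF1R were higher in KO at 1.65 and 1.44, while CD14 and FCGR3A were lower at −3.05 and −2.52. The 6 measured markers of epithelial cells and fibroblasts summed to 388 to 901 in KO and to 5594, 571 and 349 in WT1, WT2 and WT3, with FN1 the most counted, and none of the 6 passed the test. The share of counts from mitochondrially encoded genes was 10.8% to 11.1% in KO and 6.86% to 7.07% in WT. None of the measured markers was at 0 in any library. The part of these differences in the results was not tested, and in such bulk samples fewer cells of a type and less RNA per cell cannot be told apart.

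All 39 genes passed the minimum mean of 10 normalized counts. Of these, 11 were higher in KO and 18 were lower at an adjusted p under 0.05 (limma on log2 of the normalized count plus 1, two-sided, adjusted over 17425 genes), and 10 did not pass. That is 74.4% of the members, beside 60.6% of all genes tested (30.3% higher and 30.3% lower). For 27 members the 3 KO values lay wholly apart from the 3 WT values, 10 above and 17 below, beside 65.2% of all genes (32.7% above and 32.5% below). A change of at least 1 on the log2 scale was called for 3 members upwards and 6 downwards, together 23.1%, beside 14.8% of all genes (6.39% upwards and 8.37% downwards). The 6 were IFIT2, XAF1, GBP2, ISG20, IRF7 and IFIT1, and the 3 were OAS1, TRIM22 and IFITM2. The median log2 fold change of the members was −0.044, beside −0.0066 for all genes. With 3 libraries against 3, an exact two-sided permutation test of a single gene cannot go below p = 0.1. Without WT1, which held the high sum of epithelial and fibroblast markers, and KO3, 9 members were called higher and 15 lower. In that analysis 9239 genes were called in all.

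**Figure D1:**
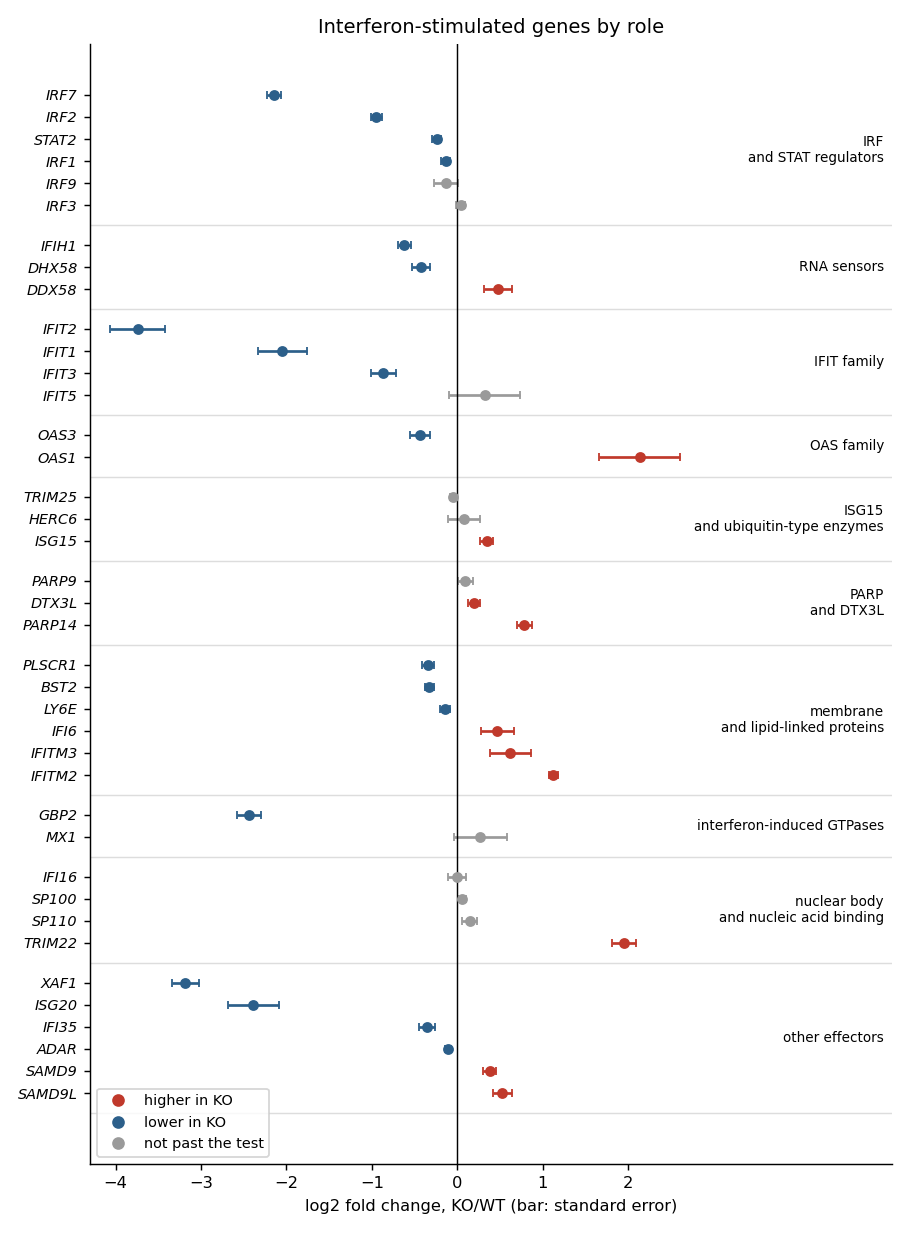
Log2 fold changes, KO/WT (horizontal axis), of the 39 genes in 10 role groups (rows), with their standard errors as bars. Red points were higher in KO, blue points lower and grey points did not pass the test. The 6 largest falls lie between −3.74 (IFIT2) and −2.05 (IFIT1), and no regulator was called higher.

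Promoter sequence was not used to draw up the list. Its genes were listed as interferon-stimulated, however, and the ISRE is an element of that response. A higher share of ISRE cores among them is therefore no independent result. Windows from 250 bases before to 50 after the transcription start were available from RefSeq (GRCh38.p14) for 30 of the 39 members, in 41 windows, since some genes have several starts. DDX58 was matched under its current symbol RIGI. IRF7, IRF2, IRF3, DHX58, IFIT2, LY6E, IFITM2, GBP2 and TRIM22 had no entry. The ISRE core was searched on both strands, as GAAA and GAAA with any 2 bases between them and as the reverse complement, TTTC and TTTC with any 2 bases between them. It was present in 19 of the 41 windows (46.3%), beside 3.57% of the 35116 windows in the whole table. Windows of 1 gene can overlap, and counted by gene it was present in 16 of 30 members (53.3%), beside 4.38% of 27305 genes. It lay in 6 of the 9 matched members that were higher in KO, in 7 of 12 that were lower and in 3 of 9 that did not pass the test. The core was thus found in members that moved either way. The median log2 fold change was 0.15 for the 16 members with a core and −0.02 for the 14 without. These medians leave out IFIT2, GBP2, IRF7, TRIM22 and IFITM2, which had no window. They belong to the 9 members with a called change of at least 1 on the log2 scale. The 7 stretches printed here are the 120 bases just before the start, with ISRE cores in capitals, written 5′ to 3′ on the strand of the gene. The first 4 belong to genes that were lower in KO and the last 3 to genes that were higher.
IFIT1: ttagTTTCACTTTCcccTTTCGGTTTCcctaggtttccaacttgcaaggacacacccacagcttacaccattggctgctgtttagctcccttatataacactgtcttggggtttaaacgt
IFIT3: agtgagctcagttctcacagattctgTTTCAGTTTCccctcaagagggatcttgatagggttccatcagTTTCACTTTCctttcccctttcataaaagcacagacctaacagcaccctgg
IFIH1: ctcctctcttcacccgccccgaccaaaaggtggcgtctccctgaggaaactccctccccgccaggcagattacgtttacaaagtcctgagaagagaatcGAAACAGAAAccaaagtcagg
ISG20: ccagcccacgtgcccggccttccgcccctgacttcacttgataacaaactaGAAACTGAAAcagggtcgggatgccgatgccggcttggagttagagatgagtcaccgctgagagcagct
ISG15: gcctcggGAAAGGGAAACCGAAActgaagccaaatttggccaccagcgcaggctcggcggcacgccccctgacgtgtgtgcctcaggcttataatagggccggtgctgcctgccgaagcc
PARP14: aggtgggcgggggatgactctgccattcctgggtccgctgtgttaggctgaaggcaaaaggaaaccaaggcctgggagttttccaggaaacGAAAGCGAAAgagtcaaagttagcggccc
IFI6: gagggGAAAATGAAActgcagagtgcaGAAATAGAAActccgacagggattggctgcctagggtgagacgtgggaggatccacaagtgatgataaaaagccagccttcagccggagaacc
These stretches lie at chr10:89392503-89392622 on the plus strand for IFIT1, chr10:89332409-89332528 on the plus strand for IFIT3, chr2:162318685-162318804 on the minus strand for IFIH1 and chr15:88638896-88639015 on the plus strand for ISG20. Those of the genes that were higher lie at chr1:1013377-1013496 on the plus strand for ISG15, chr3:122680719-122680838 on the plus strand for PARP14 and chr1:27672193-27672312 on the minus strand for IFI6. The cores of IFIT1 begin 116 and 103 bases before the start, those of ISG15 begin 113 and 107 bases before it and share bases, and the single core of PARP14 begins 29 bases before it. IFIH1 and IFI6 hold further cores upstream of the printed stretch. The IFIT3 stretch precedes 1 of its 2 starts and lies inside the annotated gene (chr10:89327894-89340971). Those of ISG20, ISG15 and PARP14 also lie wholly inside the annotated gene. Those of IFIT1, IFIH1 and IFI6 overlap its 5′ end. The window of the other IFIT3 start holds cores that begin 156 and 122 bases before that start. The core of the gamma-activated site, an element of interferon gamma responses, was searched as TTCNNNGAA, its own reverse complement. It was in 10 of the 41 windows (24.4%), beside 7.66% of all windows, and in BST2 and MX1 a match shared 3 bases with an ISRE core. The NF-kB core, searched as GGG and CC, or GG and CCC, with any 5 bases between them, was in 27 of the 41 windows (65.9%), beside 58.7% of all windows. None of the 3 regulators with a window, STAT2, IRF1 and IRF9, held the ISRE core, while IRF1 and IRF9 each held a gamma-activated site core. A match is a description of these letters and not a measured binding site, and a window without one lacks only these letters.

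The regulators fell or did not pass the test: 0 of 6 were higher in KO and 4 were lower, beside 30.3% of all genes in either direction, with a median log2 fold change of −0.19. IRF7, the factor that amplifies type I interferon production, moved most. It had 209, 193 and 219 normalized counts in KO, against 874, 975 and 903 in WT. The groups were far apart, averaging 207 ± 13.01 in KO and 917 ± 51.7 in WT (SD, n = 3 each). Its log2 fold change was −2.14 ± 0.08 (adjusted p = 3.5e-14, limma), which is 4.43-fold lower in KO. IRF2, known as an antagonist of IRF1 on the same elements, had 567, 583 and 544 normalized counts in KO, against 1033, 1113 and 1126 in WT. All 3 KO libraries lay below all 3 WT libraries, and the log2 fold change was −0.95 ± 0.06 (adjusted p = 1.7e-10). STAT2, a subunit of the complex on the ISRE, had 1651, 1644 and 1622 normalized counts in KO, against 2028, 1927 and 1865 in WT. These groups did not overlap either, with a smaller difference of −0.24 ± 0.05 on the log2 scale (adjusted p = 3.7e-04).

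IRF1, an activator that is induced by interferon gamma, had 1481, 1456 and 1387 normalized counts in KO, against 1598, 1646 and 1509 in WT. The groups were close without overlapping, at −0.14 ± 0.05 (adjusted p = 0.036), and the call was lost in 10 of 17 alternative analyses. IRF1 shares 22% of its exonic bases with C5orf56 on the opposite strand, and no source used here says whether counting used strand. IRF9, the DNA-binding subunit of the ISRE complex, had 123, 103 and 104 normalized counts in KO, against 115, 133 and 115 in WT. Its groups overlapped, and the 95% interval of its log2 fold change ran from −0.43 to 0.17 (adjusted p = 0.45). It shares 48.4% of its exonic bases with another gene on the same strand, AL136295.5, so its level is uncertain. IRF3, the factor that RNA and DNA sensors activate first, had 5652, 5142 and 5868 normalized counts in KO, against 5055, 5742 and 5398 in WT. Its groups overlapped as well, with an interval from −0.07 to 0.15 (adjusted p = 0.54), and 19.3% of its exonic bases are shared with BCL2L12 on the opposite strand.

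**Figure D2:**
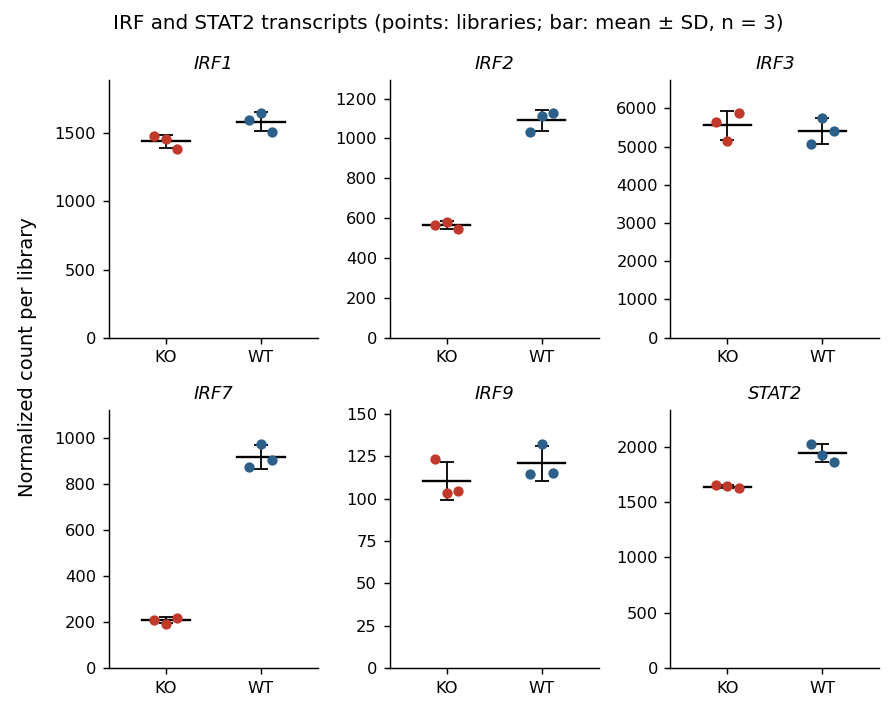
Normalized counts (vertical axis, from 0) of the 6 regulators in each library, KO left of WT in each panel, with points for libraries and lines with bars for the mean and SD (n = 3). IRF7 and IRF2 sit far below WT in all 3 KO libraries, while the groups of IRF3 and IRF9 overlap.

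The effectors moved both ways. Of 33, 11 were higher in KO and 14 were lower, and 8 did not pass, with a median log2 fold change of 0.06. That is 33.3% higher and 42.4% lower, beside 30.3% of all genes in either direction. Those with a called change of at least 1 on the log2 scale numbered 3 upwards and 5 downwards, 24.2% of the effectors beside 14.8% of all genes. The difference between regulators and effectors was not tested.

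The 3 RNA sensors differed in direction. IFIH1, which encodes the long double-stranded RNA receptor MDA5, had 428, 446 and 407 normalized counts in KO, against 659.9, 636 and 669 in WT. Its KO libraries all lay below its WT libraries, at −0.62 ± 0.07 on the log2 scale (adjusted p = 3.8e-07). DHX58, which encodes LGP2, a modulator of the other sensors, was lower as well, at −0.43 ± 0.11 (adjusted p = 0.0019). DDX58, which encodes RIG-I, the receptor of short RNA with a 5′ triphosphate, was higher in KO at 0.48 ± 0.16 (adjusted p = 0.016). Its KO values of 141, 141 and 127 all lay above its WT values of 111, 75.3 and 111. The DDX58 call was lost in 3 of 17 alternatives, among them the one without WT2, where the log2 fold change was 0.29 (adjusted p = 0.10).

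The IFIT genes encode proteins that bind viral RNA and block its translation. Of the 4 measured, 3 were lower in KO (75%, beside 30.3% of all genes). IFIT2 had 8.22, 6.03 and 19.2 normalized counts in KO, against 161, 156 and 123 in WT. The KO libraries held 9, 6 and 16 reads of it and the WT libraries 171, 139 and 147, so the KO level rests on few reads. The groups were widely separated at −3.74 ± 0.32 on the log2 scale (adjusted p = 5.3e-09), the largest change of any member, and the KO mean was 13.1-fold lower. IFIT1 had 11.9, 15.1 and 12.01 normalized counts in KO, against 65.7, 44.96 and 61.1 in WT, with no overlap and a log2 fold change of −2.05 ± 0.29 (adjusted p = 4.8e-06). It too was sparse in KO, at 38 reads over 3 libraries, beside 183 in WT. IFIT3, which stabilizes the RNA binding of IFIT1, had 84.98, 77.3 and 73.2 normalized counts in KO, against 153, 145 and 134 in WT. This is a fall of smaller size, −0.87 ± 0.15 (adjusted p = 3.9e-05), again without overlap. IFIT5 was near the detection limit in both groups, with 46 reads in all KO libraries and 41 in all WT libraries, and did not pass the test (interval −0.55 to 1.20).

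The OAS enzymes make the short oligoadenylates that activate the RNA-degrading enzyme RNase L, and the 2 measured members went opposite ways. OAS1 had 38.4, 40.2 and 31.2 normalized counts in KO, against 5.63, 3.37 and 20.1 in WT. KO lay above WT in all libraries, but the WT libraries were uneven, with 6, 3 and 24 reads in WT1, WT2 and WT3. The log2 fold change was 2.14 ± 0.47 (adjusted p = 6.5e-04). It was 2.80 without WT3, 1.66 without WT2 and 1.66 with a pseudocount of 5, and an ordinary linear model, with no variance shared between genes, gave an adjusted p of 0.066. The WT mean of 9.69 is under the minimum of 10, so that OAS1 entered the test through its KO values. OAS3 had 149, 143 and 148 normalized counts in KO, against 204, 209 and 182 in WT. It was lower in KO at −0.43 ± 0.12 (adjusted p = 0.0033) without overlap.

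ISG15 is a ubiquitin-like protein that is attached to other proteins during the interferon response. Its transcript had 666, 715 and 693 normalized counts in KO, against 505, 587 and 542 in WT. The groups did not overlap, and ISG15 was higher in KO at 0.35 ± 0.07 (adjusted p = 3.9e-04). TRIM25, the ubiquitin ligase that acts on RIG-I, lay between 3862 and 4137 in all 6 libraries with an interval of −0.14 to 0.05. HERC6, of the HERC ubiquitin ligase family, also did not pass (interval −0.31 to 0.47). Among the ADP-ribosyltransferases of the PARP family and their partner, PARP14 had 624, 601 and 656 normalized counts in KO, against 391, 314 and 391 in WT. That is a rise of 0.78 ± 0.09 (adjusted p = 2.7e-07), with every KO library above every WT library. DTX3L, the ubiquitin ligase that pairs with PARP9, had 499, 478 and 484 normalized counts in KO, against 436, 429 and 411 in WT. It was higher at 0.20 ± 0.07 (adjusted p = 0.029), a call lost in 5 of 17 alternatives. PARP9 itself gave 0.10 ± 0.09 and did not pass (adjusted p = 0.37). DTX3L and PARP9 lie on opposite strands and share 217 exonic bases.

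Of the 6 membrane and lipid-linked effectors, 3 were called higher and 3 lower (50% each way, beside 30.3% of all genes). The libraries of 3 did not overlap, 1 above and 2 below (50%, beside 65.2% of all genes). The calls of IFITM3, IFI6 and LY6E were unstable. IFITM2, which hinders the fusion of virions with endosomal membranes, had 2047, 1894 and 1948 normalized counts in KO, against 920.0, 903 and 868 in WT. KO was 2.19-fold higher, with no overlap, at 1.13 ± 0.05 on the log2 scale (adjusted p = 1.3e-12). IFITM3, its close paralog, had 66.7, 78.3 and 92.5 normalized counts in KO, against 77.9, 46.1 and 35.97 in WT. The KO value of 66.7 lay below the WT1 value of 77.9, so the groups overlapped, and the call at 0.62 ± 0.24 (adjusted p = 0.034) was lost in 7 of 17 alternatives. IFITM2 and IFITM3 are near-identical copies and 22.7% of the exonic bases of IFITM2 are shared with IFITM1 on the same strand, so the split of reads among them is uncertain. IFI6, a small protein that protects against flaviviruses, had 144, 119.5 and 108 normalized counts in KO, against 80.7, 124 and 69.4 in WT. Here WT2 lay within the KO range, and its call at 0.47 ± 0.19 (adjusted p = 0.040) was lost in 7 of 17.

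BST2, or tetherin, which holds budding virions at the cell surface, had 1324, 1269 and 1341 normalized counts in KO, against 1697, 1608 and 1628 in WT. All KO libraries lay below all WT libraries, at −0.33 ± 0.05 (adjusted p = 2.2e-05). PLSCR1, a phospholipid scramblase, was lower by a like amount, −0.34 ± 0.07 (adjusted p = 4.4e-04). LY6E, a lipid-anchored protein that blocks coronavirus fusion, had 3375, 3333 and 3469 normalized counts in KO, against 3603, 4248 and 3434 in WT. WT3 lay inside the KO range, and the fall of −0.14 ± 0.06 (adjusted p = 0.04997) sat at the threshold. It was lost in 10 of 17 alternatives, with a value of −0.05 and an adjusted p of 0.36 without WT2.

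Of the interferon-induced GTPases, GBP2, a guanylate-binding protein that coats intracellular pathogens, had 63.05, 56.2 and 54.03 normalized counts in KO, against 302, 371 and 284 in WT. It was 5.53-fold lower in KO, −2.44 ± 0.14 on the log2 scale (adjusted p = 1.5e-11), and the groups were far apart. MX1, a classic marker of type I interferon exposure, had 31.1, 29.1 and 40.8 normalized counts in KO, against 17.8, 41.6 and 27.6 in WT. These are 97 reads in KO and 89 in WT, the groups overlapped, and the interval of −0.38 to 0.93 spans falls and rises. Among proteins of nuclear bodies and nucleic acid binding, TRIM22, a restriction factor of retroviruses, had 265, 268 and 217 normalized counts in KO, against 70.4, 57.3 and 63.6 in WT. It was 3.92-fold higher in KO at 1.95 ± 0.14 (adjusted p = 5.6e-10), again without overlap. SP100, a core protein of PML bodies, had 2125, 2086 and 2030.4 normalized counts in KO, against 2009, 1911 and 2079.7 in WT. Its groups overlapped, and SP100, SP110 and the DNA sensor IFI16 did not pass the test, with intervals of −0.05 to 0.16, −0.04 to 0.34 and −0.23 to 0.23.

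Of the 6 remaining effectors, 4 were lower and 2 were higher (66.7% and 33.3%, beside 30.3% of all genes each way). XAF1, a pro-apoptotic antagonist of the inhibitor XIAP, had 38.4, 28.1 and 33.6 normalized counts in KO, against 299, 339 and 290.3 in WT. It was 9.28-fold lower in KO, −3.18 ± 0.16 on the log2 scale (adjusted p = 2.0e-12), the second largest change of the 39. XAF1 shares 38.3% of its exonic bases with PRAL on the opposite strand. ISG20, an exonuclease of viral RNA, had 11.9, 13.1 and 12.01 normalized counts in KO, against 98.6, 68.6 and 47.7 in WT. The KO libraries held 36 reads in all and the WT libraries 223, the WT values were spread, and the log2 fold change was −2.39 ± 0.30 (adjusted p = 1.1e-06) without overlap. ADAR, which edits adenosine in double-stranded RNA, had 6318, 6419.7 and 6334 normalized counts in KO, against 6953, 6923 and 6671 in WT. The difference was small, −0.11 ± 0.04 (adjusted p = 0.030), and the call was lost in 9 of 17 alternatives, although the groups did not overlap. IFI35 was lower at −0.35 ± 0.09. The neighbouring genes SAMD9 and SAMD9L, which restrict poxviruses, were both higher, at 0.38 ± 0.08 and 0.53 ± 0.11 (adjusted p = 3.9e-04 and 3.4e-04).

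**Figure D3:**
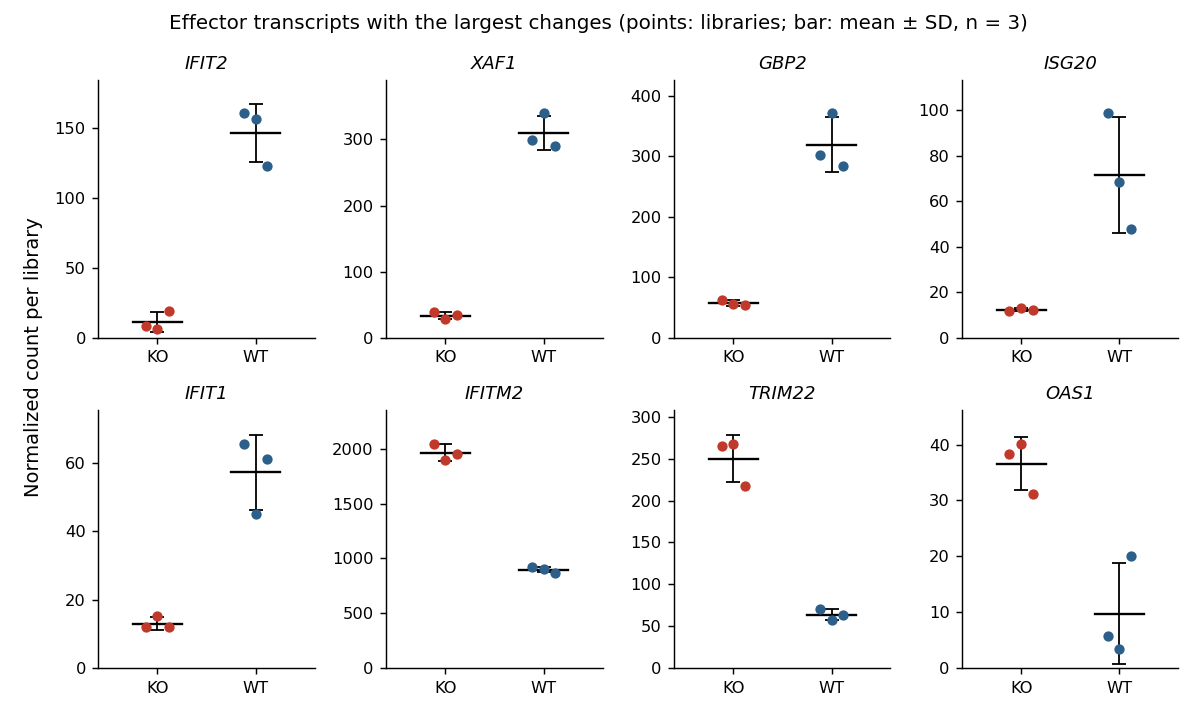
Normalized counts (vertical axis, from 0) in each library for the 8 effectors with a called change of at least 1 on the log2 scale, KO left of WT, with points for libraries and lines with bars for the mean and SD (n = 3). IFIT2, XAF1, GBP2, ISG20 and IFIT1 sit low in all 3 KO libraries, IFITM2, TRIM22 and OAS1 sit high, and the WT values of OAS1 and ISG20 are the most spread.

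Levels were compared between genes per kb of joined exons. In KO the order was led by IRF3 (1464), LY6E (1285), IFITM2 (1272) and BST2 (1172 normalized counts per kb). In WT it was led by BST2 (1469.7), LY6E (1425) and IRF3 (1423), followed by ADAR, IFITM2 and ISG15 between 579 and 707. Differences between genes in these first places were not tested. IRF7 held place 18 of 39 in KO, at 78.7 normalized counts per kb, and place 9 in WT, at 349. The lowest levels in KO were ISG20 (1.67), IFIT2 (2.72), IFIT1 (2.81), IFIT5 (3.86) and MX1 (3.91 normalized counts per kb). In WT the lowest were OAS1 (1.96), IFIT5 (3.13), MX1 (3.37), ISG20 (9.73) and TRIM22 (10.6). IFIT2 thus moved to place 38 in KO, against place 26 in WT, and TRIM22 to place 23, against place 35. The coefficient of variation over the 3 libraries had a median of 5.25% in KO and 7.85% in WT over the members. The largest were 93.5% for OAS1 in WT and 63.3% for IFIT2 in KO, both genes with few reads.

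**Figure D4:**
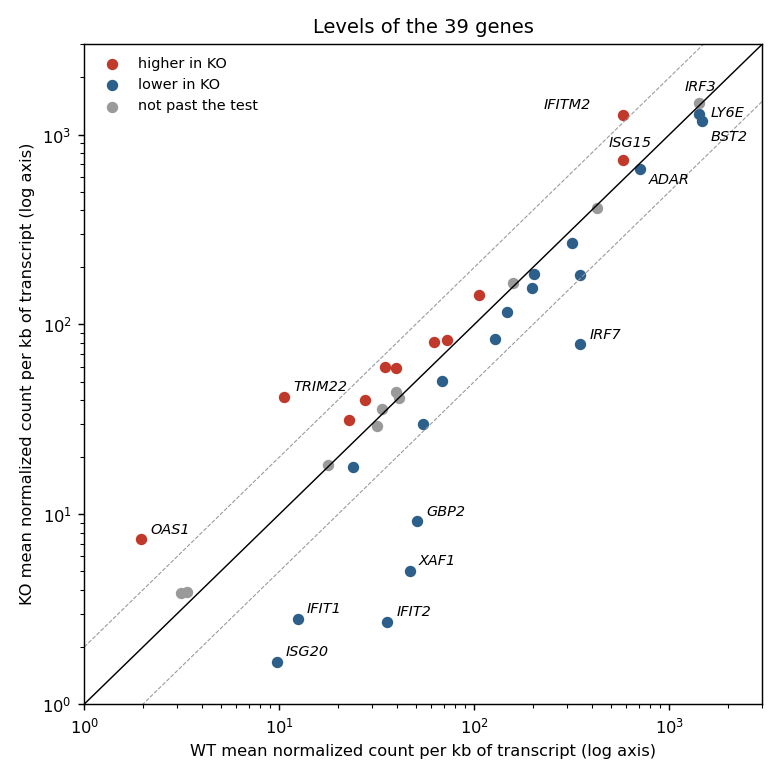
Mean normalized counts per kb of joined exons (named transcript on the axes) of the 39 genes in KO (vertical, log axis) and WT (horizontal, log axis). The solid line marks equal levels and the dashed lines a change of 1 on the log2 scale. The highest genes in KO run from BST2 at 1172 to IRF3 at 1464 per kb, and ISG20, IFIT2 and IFIT1 are lowest in KO at 1.67 to 2.81 per kb.

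Several members are neighbours in the genome (GRCh38, GENCODE release 29). The IFIT genes lie in the order IFIT2, IFIT3, IFIT1 and IFIT5 on chromosome 10, with IFIT2 at chr10:89283694-89309276 and IFIT5 at chr10:89414586-89421001. The first 3 were lower in KO, with IFIT1 8.10 kb away from IFIT5, which did not pass the test. OAS1 (chr12:112906777-112933222) and OAS3 (chr12:112938352-112973249) are 5.13 kb apart on chromosome 12 and differed in direction. On chromosome 3, PARP9, DTX3L and PARP14 had log2 fold changes of 0.10, 0.20 and 0.78, of which the last 2 were called. SAMD9 and SAMD9L, 12.03 kb apart on chromosome 7, were both higher, as were IFITM2 and IFITM3, 4.40 kb apart on chromosome 11. Neighbouring genes can share reads where their exons overlap, and apart from DTX3L and PARP9 no such sharing was found in the annotation between these members.

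The wider pathway was read from lists of 106 further genes, of which 76 were in the table. Of these, 28 were higher in KO and 30 were lower (36.8% and 39.5%, beside 30.3% of all genes in either direction), with a median log2 fold change of −0.03. None of the 9 interferon ligand genes listed had a row, and they were not analysed here. Of 9 measured receptors, JAK kinases and STATs, 2 were higher and 4 were lower, beside 30.3% of all genes in either direction. IFNGR2, a chain of the interferon gamma receptor, had 1567, 1558 and 1510.5 normalized counts in KO, against 2429, 2432 and 2559 in WT. It was lower in KO at −0.68 ± 0.05, without overlap. TYK2, a kinase at the type I receptor and the most highly counted gene of the list, had 5456, 4876 and 5556 normalized counts in KO, against 7305, 7836 and 7852 in WT. Its KO libraries were all below its WT libraries, at −0.53 ± 0.05. IFNAR1 and IFNAR2, the chains of the type I receptor, were higher at 0.20 and 0.28. IFNAR2 shares 44.2% of its exonic bases with AP000295.1 on the same strand and 39.1% with IL10RB-DT on the opposite strand, so its level is uncertain. Both receptor chains were named after their values were seen.

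Negative regulators of the pathway had 0 members higher in KO and 8 of 12 lower (66.7%, beside 30.3% of all genes), with a median of −0.25. SOCS3, an inhibitor of JAK kinases at cytokine receptors, had 22.8, 12.1 and 24.01 normalized counts in KO, against 348, 426 and 358 in WT. The groups were far apart, at −4.25 ± 0.21 (adjusted p = 2.5e-12). SOCS1, the main inhibitor of this kind at interferon receptors, had 161, 133 and 168 normalized counts in KO, against 350.2, 409 and 406 in WT. It was lower without overlap, at −1.33 ± 0.11. PTPN6, the phosphatase SHP-1 and the most highly counted of the list, was lower at −1.05 ± 0.05. Of 12 sensors, adaptors and kinases, 4 were higher and 7 were lower, beside the same 30.3% each way, with a median of −0.51. TLR8 and TLR9, endosomal receptors of RNA and DNA, were lower at −1.52 and −1.79. Both were near the detection limit, with 2.74 to 33.7 normalized counts in single libraries. The KO means of both are under the minimum of 10, so that they entered the test through their WT values, and TLR9 shares 86.3% of its exonic bases with another gene on the same strand. MAVS, the adaptor of the RNA sensors and the most highly counted of that list, was higher at 0.15 ± 0.04 (adjusted p = 0.0032). TMEM173, which encodes STING, and CGAS, which makes its ligand upon sensing DNA, were lower at −0.95 ± 0.05 and −0.81 ± 0.05, and were named after their values were seen.

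Of 5 other IRF family members and IRF2-binding proteins, 3 were higher and 2 were lower, beside 30.3% each way over all genes. IRF8, a factor of monocyte and dendritic cell development, had 155, 158 and 159.7 normalized counts in KO, against 6.57, 11.2 and 18.4 in WT. KO lay far above WT, at 3.70 ± 0.29 (adjusted p = 1.3e-09). Its direction was opposite to that of IRF7. IRF2BPL and IRF2BP2, of the IRF2-binding protein family, were lower at −1.61 ± 0.12 and −0.53 ± 0.04. IRF2BP1, of the same family, was higher at 0.15 ± 0.05 without overlap, and was named after its values were seen. Among 38 other interferon-stimulated genes, 19 were higher and 9 were lower (50% and 23.7%, beside 30.3% of all genes each way), with a median of 0.13. TNFSF10, the death ligand TRAIL, had 99.6, 83.4 and 104 normalized counts in KO, against 20.7, 23.6 and 20.1 in WT. The groups did not overlap, at 2.11 ± 0.22 (adjusted p = 9.7e-08). CMPK2, a mitochondrial nucleotide kinase, was higher at 1.73 ± 0.24, and B2M, the light chain of MHC class I and the most highly counted gene of the list, did not pass at 0.11 ± 0.05 (adjusted p = 0.070). UBE2L6 and HERC5, the conjugating enzyme and the ligase that attach ISG15, were higher at 0.99 ± 0.09 and 0.85 ± 0.11. Of the 9 that were lower, HELZ2 and C19orf66 moved most, at −1.67 ± 0.24 and −1.30 ± 0.08. These 4 genes were named after their values were seen.

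**Figure D5:**
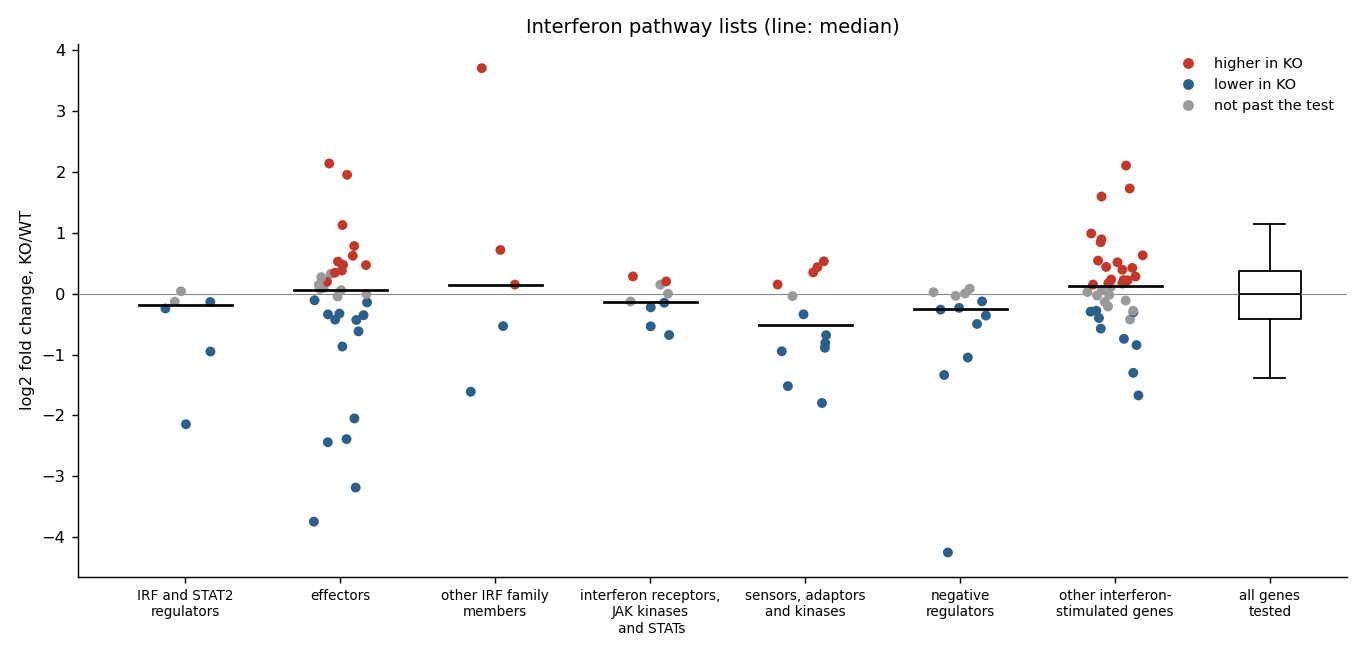
Log2 fold changes, KO/WT (vertical axis), of single genes (points) in the regulators, the effectors and 5 further lists of the pathway, with a line at each median. The box on the right gives all 17425 genes tested, from the 25th to the 75th percentile (−0.41 to 0.37) with whiskers at the 5th and 95th (−1.38 and 1.14). Red points were higher in KO, blue points lower, and no point of the negative regulators is red.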

How the data were processed

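RNA of 3 akirin2 KO and 3 WT libraries of HL60 cells was measured. Tools listed in the submitters' processing notes, without roles, are featureCounts, Trimmomatic 0.36, DESeq2 and Subread 1.5.2, with GRCh38 as build. The aligner, annotation and strandedness of counting were not given in the sources used here. Signal values, as the authors deposited them, are gene-level reads scaled by size factors. The authors' table also holds log2 fold changes and p-values of the authors' own comparison, which were not used. In every library 100% of values were whole multiples of the value of 1 read (tolerance 0.01), which recovered the reads counted to genes. Genes without a name (59) could not be members, and 17420 genes matched GENCODE release 29, which gave exon lengths and positions.

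KO was compared with WT by limma 3.58.1 (eBayes with trend, R 4.3.3) on log2 of the deposited value plus 1, and fold changes of low genes on this scale depend on the added 1. P-values were adjusted by Benjamini-Hochberg across 17425 genes whose mean reached 10. The steps were tested on simulated data in which few genes changed, unlike here. That run therefore does not test the scaling or the rate of false calls in these data. The paper names Student's t test per gene. Count models on recovered reads, edgeR 4.0.16 and DESeq2 1.42.0, were alternatives and called 10570 and 9855 genes, beside 10552. Members and lists were chosen with earlier results of these data known. Values in each library are given for the regulators, for called changes of at least 1 and for the highest gene per kb of each role in KO or WT. Outside this rule they are also given for DDX58, PARP14, IFITM3, IFI6 and MX1. Of the pathway lists, the 2 largest called changes and the highest count are named. Other alternatives were pseudocounts, minimum counts, TMM scaling, equal totals, an ordinary linear model, a replicate block and libraries left out.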

Additional observations from a re-analysis of the deposited data

How the results depend on the processing

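Over 17 alternatives, 21 of the 29 called members kept their call wherever they were tested and none reversed. With a minimum mean of 50 normalized counts, IFIT1, ISG20, OAS1, IFIT5 and MX1 were not tested. Calls of ADAR, DDX58, DTX3L, IFI6, IFITM3, IRF1, LY6E and OAS1 were lost in at least 1 alternative, and SP110 gained one under the ordinary linear model. The median of the effectors was −0.034 without WT2, and lay between −0.034 and 0.086 over the analyses with 1 library or WT1 and KO3 left out. Over the same analyses 8 to 10 members were higher in KO and 15 to 18 were lower, beside 9239 to 10205 genes called in all. edgeR called 10 higher and 18 lower, beside 10570 genes in all, and DESeq2 called 8 and 17, beside 9855 genes in all.

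Genes that did not pass the test changed sign as follows, and the cause was not tested. IFI16 gave 0.017 with TMM scaling, 0.054 with equal totals and 0.10 without WT1 and KO3, and with 1 library left out it ranged between −0.080 and 0.078. IRF3 gave −0.046 without WT1 and KO3 and −0.0056 to 0.095 with 1 library left out. MX1 gave −0.17 without WT1 and KO3 and −0.025 to 0.56 with 1 library left out. HERC6 ranged between −0.10 and 0.31 with 1 library left out, and TRIM25 gave 0.013 with equal totals. These scalings moved the median of all genes by 0.02 and 0.06.

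KO and WT libraries carry the same replicate numbers, and whether these pair the samples was not given in the sources used here. Deviations of same-numbered libraries correlated at −0.07, 0.05 and −0.08, and those of differently numbered libraries at −0.08 to 0.14. Such correlations cannot settle whether libraries were handled together, and the main comparison used no pairing. With a replicate block, 11 members were higher, 16 were lower and 10394 genes were called in all. IRF1 and ADAR then did not pass (−0.14, adjusted p = 0.053, and −0.11, adjusted p = 0.068), and no other member's call changed. Genes with few reads, IFIT1, IFIT2, IFIT5, ISG20, MX1 and OAS1, are limited by depth.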
